A study of Mus musculus with 6 samples.

Results

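Hearts of RKIP-transgenic mice were compared with hearts of mice transgenic for a peptide inhibitor of G-protein-coupled receptor kinases (GRK-Inh-transgenic). The comparison used the 4 arrays whose labels name one of these lines, of 6 arrays in all, with 2 arrays per line. RKIP-transgenic mice expressed RKIP from the alpha-MHC promoter, which drives a gene in heart muscle cells, and GRK-Inh-transgenic mice expressed their GRK-specific peptide in the myocardium. The other 2 arrays, from wild-type B6 hearts, are given as background levels and entered no test. Mice of all groups were males aged 2 months with a B6 strain background. Nothing in the labels states that both arrays of a line stem from different mice, and the p-values therefore describe the spread between these samples alone, which may be technical. RNA of whole heart tissue was measured, and fewer cells of a type cannot be told apart from less RNA per cell.

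RKIP, the product of Pebp1, binds RAF and keeps it from phosphorylating MEK, which lowers signalling through the kinase ERK. After phosphorylation by protein kinase C it leaves RAF and binds GRK2, which otherwise phosphorylates activated beta-adrenergic and other receptors and prepares them for arrestin. The peptide, by its label, acts on the receptor kinases alone. The contrast of the lines therefore asks what sets inhibition of RAF and the receptor kinases together apart from inhibition of the receptor kinases.

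Values are scaled array signals as the authors deposited them. Differences are RKIP-transgenic minus GRK-Inh-transgenic on the log2(signal + 50) scale, with the SE of a limma model and its Benjamini-Hochberg adjusted p over all genes tested, and this scale understates the change of dim genes. A gene was called at an adjusted p under 0.05, and "higher" or "lower" refers to the RKIP-transgenic hearts. The median signal was 54.7 and 53.0 on the RKIP-transgenic arrays and 50.4 and 51.6 on the GRK-Inh-transgenic arrays. The ratio of 3' to 5' actin control signals, a measure of RNA integrity, was 2.92 and 2.96 in RKIP-transgenic and 3.03 and 2.998 in GRK-Inh-transgenic hearts. Its part in the differences was not tested. Pebp1 was not called, with signals of 9102 and 9140.4 in RKIP-transgenic and 9079 and 9296 in GRK-Inh-transgenic hearts (-0.01 ± 0.034, adjusted p = 0.895), and 9292 and 8766 in control hearts. The labels do not give the species or the extent of the transgene's sequence, so this gene does not check them, and the lines are named as labelled. All 12 cardiomyocyte markers were tested with limma and 0 were called (4 at an unadjusted p under 0.05, all higher), with differences from -0.055 to 0.11 and high signals of the defining genes Myh6 (37731 and 35906 against 36683 and 36443) and Tnnt2 (37629 and 38573 against 34727 and 35943).

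Of 11255 genes tested, 904 were called, a share of 8.03%. Of these, 448 were higher (3.98% of the genes tested) and 456 were lower (4.05%). Counts of called members in the lists below are to be read beside these shares. The larger differences lay on the lower side, where 33 genes passed 2-fold, against 10 on the higher side. The median absolute difference was 0.42 over called genes and 0.13 over all genes, and the median difference over all genes was 0.02. The arrays of the lines did not overlap in any of the 904 called genes, nor in 53.0% of all genes tested. The most negative difference belonged to the immediate early gene Fos and the most positive to Wdfy1, an adaptor of endosomal signalling. A second probe set above the filter existed for 520 called genes, and 447 of these differed in the same direction. The split depended on the scaling: with the arrays shifted to one median, 299 genes were higher and 586 lower. Alternative settings numbered 15, and each changed one step or left out one array. The count of calls fell to 86 without a variance trend and to 491 and 446 without RKIP-transgenic array 1 and array 2, against 700 and 655 without GRK-Inh-transgenic array 1 and array 2.

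**Figure D1:**
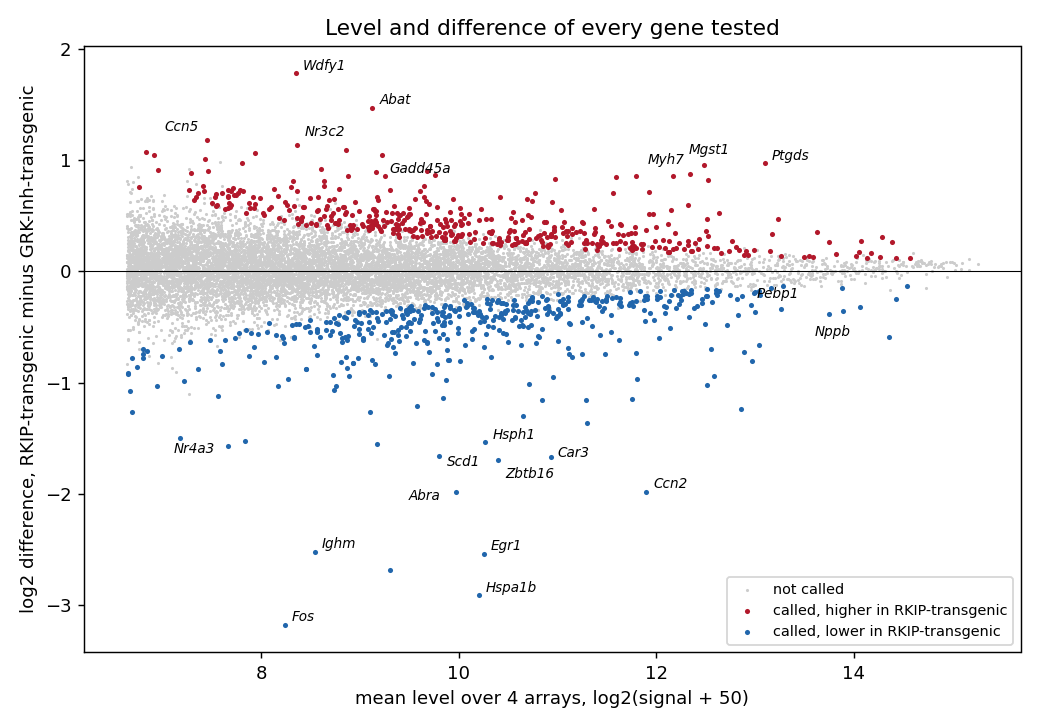
Difference between the lines (vertical axis, log2, RKIP-transgenic minus GRK-Inh-transgenic) against the mean level over the 4 arrays (horizontal axis, log2 of signal plus 50) for the 11255 genes tested, with one point per gene, the 904 called genes in colour and the others in grey. The points reach further down, to -3.17 for Fos, than up, to 1.78 for Wdfy1.

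Immediate early genes and heat shock genes held the largest differences below 0, and the sequences before the start sites of 5 of them are shown here with the binding motifs of stress-activated and cyclic AMP-activated factors. Windows are the last 180 bases before the RefSeq start on build GRCm38.p6, 5' to 3' in the direction of transcription. Capitals mark a heat shock element unit (GAANNTTC or TTCNNGAA, bound by heat shock factors) in Hspa1b and Hsph1, and a cyclic AMP response element (TGACGTCA, bound by CREB) in Dusp1 and Btg2. Dusp1 and Btg2 are the only 2 of 13 immediate early genes called lower whose windows hold this element, so they are not typical of the list. Nr4a3, with a larger difference (-1.57), has no such element in its window and is not shown. Fos is shown because its difference was the most negative, and its window holds no exact match to the motifs searched. Variants of these letters and bases further upstream were not searched, so Fos may have such sites.
Hspa1b (chr17:34959239-34959418, minus strand): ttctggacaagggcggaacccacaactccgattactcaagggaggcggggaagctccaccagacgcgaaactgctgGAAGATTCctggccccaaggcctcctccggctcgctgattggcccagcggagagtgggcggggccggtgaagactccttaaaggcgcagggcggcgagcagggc
Hsph1 (chr5:149636337-149636516, minus strand): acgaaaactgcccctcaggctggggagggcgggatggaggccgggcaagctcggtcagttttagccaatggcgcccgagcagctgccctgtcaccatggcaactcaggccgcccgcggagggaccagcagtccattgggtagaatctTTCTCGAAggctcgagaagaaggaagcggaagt
Dusp1 (chr17:26508473-26508652, minus strand): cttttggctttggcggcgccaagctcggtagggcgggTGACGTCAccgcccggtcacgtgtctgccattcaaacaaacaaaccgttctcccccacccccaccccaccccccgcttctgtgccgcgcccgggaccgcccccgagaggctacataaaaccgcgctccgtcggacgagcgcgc
Btg2 (chr1:134079156-134079335, minus strand): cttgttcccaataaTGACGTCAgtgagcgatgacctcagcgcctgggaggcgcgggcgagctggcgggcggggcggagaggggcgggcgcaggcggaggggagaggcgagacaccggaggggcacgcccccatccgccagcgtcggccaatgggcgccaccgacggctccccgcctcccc
Fos (chr12:85473710-85473889, plus strand): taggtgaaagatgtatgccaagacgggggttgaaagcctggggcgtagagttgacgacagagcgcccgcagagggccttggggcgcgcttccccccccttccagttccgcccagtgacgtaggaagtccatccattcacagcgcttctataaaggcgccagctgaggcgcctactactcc

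The motifs were searched on both strands in the 250 bases before each start. The heat shock unit occurs in 12.8% of 32851 such windows. It was present in 8 of 15 heat shock genes called lower that had a window, and in 4 of 10 other tested members of the list. Its start lies 104 bases before the start site in Hspa1b and 33 bases in Hsph1. The windows of Hspa1b and of its paralog Hspa1a are identical at 247 of 250 bases. The cyclic AMP element occurs in 1.55% of windows, and in 2 of 13 immediate early genes called lower (Dusp1 and Btg2, at 143 and 166 bases) and 1 of 4 others (Maff). A CArG box, the site of serum response factor, occurs in 1.47% of windows and in 1 of those 13 genes (Zfp36). A match describes the letters of the window and is not evidence of a site in use. The lack of a match does not show that a gene has no site.

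Immediate early genes, which cells transcribe within minutes of a growth factor, hormone or stress signal, were lower in RKIP-transgenic hearts in 15 of 21 tested members, and 0 were higher (0 at an unadjusted p under 0.05). The list's median difference was -0.74, beside 0.02 for all genes. Its size depended on the setting, with -0.88 at an offset of 16, -0.54 at an offset of 200 and -0.62 over single probe sets. Fos, a subunit of the transcription factor AP-1, had signals of 57.3 and 44.4 in RKIP-transgenic hearts, 838 and 880.1 in GRK-Inh-transgenic hearts and 72.9 and 108 in control hearts. Its difference was -3.17 ± 0.12, adjusted p = 3.1e-06, and the size depended on the offset (-3.72 with an offset of 16 and -2.08 with an offset of 200). The RKIP-transgenic level was near that of the filter on dim genes (a signal of 49.7), and both GRK-Inh-transgenic arrays stood far above the other 4. Egr1, a zinc finger factor that is induced through ERK and serum response factor, gave 434 and 479.8 against 2751 and 3050.2, with 1011 and 1013 in controls (-2.54 ± 0.078, adjusted p = 1.2e-06). Here the control arrays lay between the lines, below both GRK-Inh-transgenic and above both RKIP-transgenic arrays.

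The phosphatase gene Dusp1, whose product inactivates p38, JNK and ERK, showed the same order of groups. Its signals were 1622 and 1423 in RKIP-transgenic, 4085 and 3883 in GRK-Inh-transgenic and 2238 and 2441 in control hearts (-1.36 ± 0.068, adjusted p = 1.0e-05). Nr4a3, an orphan nuclear receptor induced by cyclic AMP, had 62.8 and 72.4 against 322 and 276, and 34.9 and 68.9 in controls (-1.57 ± 0.14, adjusted p = 4.4e-04; -1.91 with an offset of 16 and -0.90 with an offset of 200). Btg2, an antiproliferative gene, had 555 and 578 against 1405 and 1224, and 668 and 676 in controls (-1.14 ± 0.084, adjusted p = 1.3e-04). For Nr4a3 and Btg2 both GRK-Inh-transgenic arrays were above the other 4. Other called members were the AP-1 genes Jund (-0.74), Jun (-0.53) and Fosl2 (-0.47), the stress factor Atf3 (-0.83), the mRNA decay factor Zfp36 (-0.83) and the zinc finger factors Klf2 (-0.73) and Klf4 (-0.58). The call of Fosl2 was lost in 5 of the 15 settings, without RKIP-transgenic array 1 or either GRK-Inh-transgenic array among them (adjusted p 0.0658 to 0.105), and its second probe set differed by -0.04. The list had 14, 14, 13 and 14 calls when RKIP-transgenic arrays 1 and 2 and GRK-Inh-transgenic arrays 1 and 2 were left out in turn, and 9 without a variance trend.

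Heat shock proteins, which bind unfolded proteins in the cytosol and mitochondria, were lower in 17 of 30 tested members and higher in 2, with a median of -0.39. Hspa1b, an inducible HSP70, had signals of 414 and 348 in RKIP-transgenic hearts, 3185 and 3188 in GRK-Inh-transgenic hearts and 322 and 330.4 in control hearts (-2.91 ± 0.082, adjusted p = 9.3e-07). Hspa1a, with 206 and 192 against 1439.5 and 1662 and 153 and 143 in controls (-2.68 ± 0.096, adjusted p = 2.7e-06), is nearly identical, so the signals of both cannot be assigned to either gene with certainty. In both, the GRK-Inh-transgenic arrays lay far above the other 4. Hsph1, an HSP110 that exchanges nucleotide on HSP70, had 741 and 615 against 2052 and 2057, and 759 and 741 in controls (-1.54 ± 0.086, adjusted p = 2.0e-05). The inducible HSP90 gene Hsp90aa1 had 3984 and 4118 against 7782 and 8768, and 3224 and 3315 in controls (-1.02 ± 0.057, adjusted p = 2.0e-05). Dnaja1, an HSP40 co-chaperone, had 2568 and 2469.9 against 5075 and 4849, and 2225 and 2841 in controls (-0.96 ± 0.048, adjusted p = 1.0e-05).

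The calls extended to smaller differences across the chaperone cycle. They included the small heat shock protein Hspb1 (-0.81), the constitutive HSP70 gene Hspa8 (-0.59), the HSP90 activator Ahsa1 (-0.62), the co-chaperones Dnajb1 (-0.61), Stip1 (-0.50) and Bag3 (-0.41), and the mitochondrial chaperonin genes Hspd1 (-0.37) and Hspe1 (-0.28). The members called higher were the small heat shock proteins of muscle Hspb7 (0.26 ± 0.062, adjusted p = 0.0389) and Hspb2 (0.26 ± 0.057, adjusted p = 0.0275). Neither was called with the arrays shifted to one median, which left 0 higher members and 20 lower ones. Their calls were lost in 7 of the 15 settings for Hspb7, without either RKIP-transgenic array or GRK-Inh-transgenic array 1 among them (adjusted p 0.057 to 0.257) and in 7 of the 15 settings for Hspb2, without each of the 4 arrays among them (adjusted p 0.0518 to 0.162), and the difference of Hspb7 was 0.15 without GRK-Inh-transgenic array 1. With each array left out in the order given above, 16, 17, 17 and 17 members were lower, and 7 without a variance trend.

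Chaperones and folding enzymes of the endoplasmic reticulum, the targets of the unfolded protein response, were lower in 12 of 24 members and higher in 0 (4 at an unadjusted p under 0.05), with a median of -0.25. Sdf2l1, a partner of BiP, had 156 and 188 in RKIP-transgenic and 434 and 337 in GRK-Inh-transgenic hearts, and 172 and 173 in controls (-0.97 ± 0.14, adjusted p = 0.00568). The protein disulfide isomerases Pdia4 (261 and 325 against 622 and 588; -0.94 ± 0.11, adjusted p = 0.00197) and Pdia6 (982 and 855 against 1621 and 1385; -0.68 ± 0.093, adjusted p = 0.00377) were lower too. Manf, a secreted protein of the stressed reticulum, had 1309 and 1419.6 against 2187 and 2130.4, and 860.2 and 847 in controls (-0.64 ± 0.061, adjusted p = 5.4e-04). For Manf both lines lay above both control arrays. Hspa5, the BiP gene itself, differed by -0.33 ± 0.029, adjusted p = 4.2e-04. Without a variance trend 0 members were called lower (for Sdf2l1, Pdia4, Creld2, Pdia6 and Manf the adjusted p was then 0.0537 to 0.102). Without each array in the order above 10, 12, 12 and 12 members were called lower and 1, 0, 0 and 1 higher.

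Of the ATF4 branch of the stress response, 1 of 19 members was lower and 1 higher (10.5% called, against 8.03% of all genes). Ddit4, an inhibitor of mTORC1 that is induced by stress and by glucocorticoids, had 573 and 559 against 1136 and 1107, and 487 and 491 in controls (-0.93 ± 0.071, adjusted p = 1.8e-04). The translation repressor Eif4ebp1 was higher by 0.23 ± 0.051, adjusted p = 0.0296. Its call was lost in 6 of the 15 settings, without RKIP-transgenic array 1 or either GRK-Inh-transgenic array among them (adjusted p 0.0527 to 0.21). The list's median was -0.018 (range over the 15 settings -0.15 to 0.031).

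**Figure D2:**
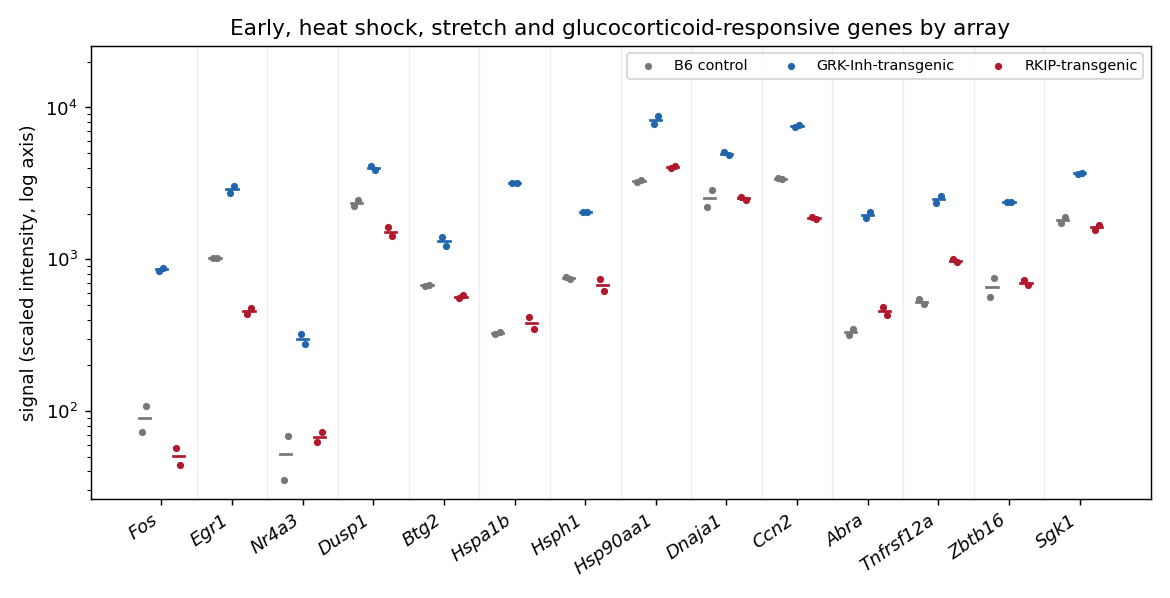
Signals of genes lower in RKIP-transgenic hearts (vertical axis, log scale, deposited signal), with one point per array and the groups B6 control, GRK-Inh-transgenic and RKIP-transgenic side by side. Horizontal bars are group means (n = 2). All genes drawn were called lower, and no called gene overlapped between the lines. The GRK-Inh-transgenic arrays therefore stand above both RKIP-transgenic arrays throughout, for example 3185 and 3188 against 414 and 348 for Hspa1b. Of all genes tested, 53.0% did not overlap between the lines.

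Among RKIP, the receptor kinases and the arrestins, 6 genes were tested, and 0 were called (0 at an unadjusted p under 0.05), with differences from -0.21 to 0.093. Grk5 had 828 and 870.3 in RKIP-transgenic and 867 and 773 in GRK-Inh-transgenic hearts (0.05 ± 0.081, adjusted p = 0.772), with 596 and 540.5 in controls, and the lines overlapped. Grk2 and Mapk3 were not analysed here. Of 11 tested genes of the RAF-MEK-ERK chain 2 were called lower, the ERK-activated kinase Rps6ka3 (1228 and 1220.2 against 1537 and 1605; -0.35 ± 0.06, adjusted p = 0.0113) and the RAS exchange factor Sos2 (-0.27 ± 0.069, adjusted p = 0.0468). A further probe set of Rps6ka3 did not follow, with a difference of 0.05. Araf (0.11 ± 0.085, adjusted p = 0.477), Braf (-0.22 ± 0.11, adjusted p = 0.291) and Map2k1 (-0.039 ± 0.085, adjusted p = 0.834) did not pass. Calls were lost without a variance trend for Rps6ka3 (adjusted p = 0.117) and in 8 of the 15 settings for Sos2, without each of the 4 arrays among them (adjusted p 0.0505 to 0.187).

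Of the feedback and target genes of ERK, 2 of 11 were lower and 1 higher, with a median of -0.16. That median was -0.20 with the arrays shifted to one median and -0.12 without a filter on dim genes. It was -0.095 with an offset of 200, -0.093 with a filter at the 75th percentile and -0.093 over single probe sets. Without GRK-Inh-transgenic array 2 it was -0.071. Dusp6, the phosphatase that ERK induces against itself, had 808 and 797 in RKIP-transgenic hearts, 1297 and 1301 in GRK-Inh-transgenic hearts and 962 and 961 in control hearts (-0.66 ± 0.065, adjusted p = 6.2e-04). The control arrays of Dusp6 lay between the lines. Ier3, an early response gene, was lower (-0.36 ± 0.08, adjusted p = 0.0323). Its call was lost in 4 of the 15 settings, without RKIP-transgenic array 1 or GRK-Inh-transgenic array 2 among them (adjusted p 0.0574 to 0.185), and its difference was -0.24 without RKIP-transgenic array 1. Phlda1 went the other way, with 3721 and 3882 against 2344 and 2298, and 3565 and 3405 in controls (0.70 ± 0.048, adjusted p = 8.1e-05). For Phlda1 the RKIP-transgenic arrays were near the controls and the GRK-Inh-transgenic arrays below them. Of 24 genes of adrenergic and angiotensin signalling 12.5% were called, against 8.03% of all genes. The 2 lower ones were the G-protein regulator Rgs2 (-0.35 ± 0.064, adjusted p = 0.0139) and the adenylyl cyclase Adcy6 (-0.29 ± 0.053, adjusted p = 0.0136), and the angiotensin receptor gene Agtr1a was higher (0.46 ± 0.11, adjusted p = 0.0389). These 3 calls were lost in 4 of the 15 settings for Rgs2, without either RKIP-transgenic array or GRK-Inh-transgenic array 1 among them (adjusted p 0.0516 to 0.132), in 3 of the 15 settings for Adcy6, without RKIP-transgenic array 1 or GRK-Inh-transgenic array 2 among them (adjusted p 0.0522 to 0.143) and in 5 of the 15 settings for Agtr1a, without either RKIP-transgenic array or GRK-Inh-transgenic array 1 among them (adjusted p 0.101 to 0.182), and the difference of Agtr1a was 0.29 without GRK-Inh-transgenic array 1.

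Hypertrophy and stretch genes divided, with 6 of 19 lower and 4 higher and a median of -0.16. That median was -0.20 with the arrays shifted to one median, -0.25 with a filter at the 75th percentile and -0.077 without RKIP-transgenic array 2. Abra, which passes actin changes in the sarcomere to serum response factor, had 483 and 427 in RKIP-transgenic, 1856 and 2049 in GRK-Inh-transgenic and 318 and 349 in control hearts (-1.99 ± 0.084, adjusted p = 5.1e-06). Tnfrsf12a, the receptor of the cytokine TWEAK, had 1001 and 955 against 2363 and 2611, and 547 and 503 in controls (-1.30 ± 0.067, adjusted p = 1.2e-05). For both genes the RKIP-transgenic arrays lay above the controls and below the GRK-Inh-transgenic arrays. Ccn2, the matricellular factor also known as CTGF, had 1901 and 1846 against 7427 and 7676, and 3404 and 3396 in controls, which were between the lines (-1.98 ± 0.045, adjusted p = 3.0e-07). Rcan1, a calcineurin-responsive inhibitor of calcineurin, had 1519 and 1253 against 2649.6 and 2763 (-0.95 ± 0.084, adjusted p = 4.0e-04). Xirp1, of the intercalated disc, was lower too (-0.50 ± 0.077, adjusted p = 0.00651), and the stretch gene Ankrd1 (0.31 ± 0.03, adjusted p = 6.1e-04) and the transcription factor gene Mef2c (0.30 ± 0.061, adjusted p = 0.0232) were higher. The calls of these 3 genes were lost without a variance trend for Xirp1 and Ankrd1 (adjusted p 0.0734 to 0.133) and in 5 of the 15 settings for Mef2c, without RKIP-transgenic array 2 or GRK-Inh-transgenic array 2 among them (adjusted p 0.0516 to 0.162).

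Nppb, which encodes the natriuretic peptide BNP, was above the controls in both lines, with 11851 and 12185 against 15775 and 15687, with 5374 and 5496 in controls (-0.39 ± 0.032, adjusted p = 2.6e-04). Nppa had 25433 and 24980.0 against 24636 and 24399 and was not called (0.04 ± 0.027, adjusted p = 0.426). The fetal muscle genes on the other side were Acta1, for skeletal actin, and Myh7, for beta-myosin. Acta1 had 4919 and 4981 in RKIP-transgenic, 2953 and 3036 in GRK-Inh-transgenic and 2122 and 1909 in control hearts (0.72 ± 0.043, adjusted p = 3.3e-05). Myh7 had 6092 and 6179 against 3735 and 3045, and 3485 and 3274 in controls (0.85 ± 0.081, adjusted p = 5.5e-04). Acta1 was above the controls in both lines, whereas the Myh7 arrays of GRK-Inh-transgenic hearts fell on either side of the controls. The adult myosin gene Myh6 was not called (0.0096 ± 0.03, adjusted p = 0.886). The calls of Rcan1, Nppb and Myh7 were lost without a variance trend (adjusted p 0.0607 to 0.102).

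Of 28 sarcomere and Z-disc genes, 2 were higher and 2 lower (14.3% called, against 8.03% of all genes), with a median of 0.059 (range over the 15 settings 0.019 to 0.065). The intermediate filament gene Des had 6641 and 6394 against 5058 and 5059.7, with 5949.6 and 5369.5 in controls (0.36 ± 0.04, adjusted p = 0.00134). The Z-disc gene Tcap had 14092 and 14419 against 10970.0 and 11357, with 15654 and 15425 in controls (0.35 ± 0.034, adjusted p = 6.1e-04). The members called lower were the atrial light chain gene Myl7, with 13313 and 13494 against 17244 and 17163 and 16982 and 17293 in controls (-0.36 ± 0.03, adjusted p = 2.9e-04), and the thin filament gene Lmod2 (-0.15 ± 0.036, adjusted p = 0.0416). Of 5 tested atrial and conduction markers, Myl7 was the only one called. Among these genes, calls were lost without a variance trend for Des, Tcap and Myl7 (adjusted p 0.108 to 0.115) and in 9 of the 15 settings for Lmod2, without each of the 4 arrays among them (adjusted p 0.0513 to 0.318). Of 29 subunits of oxidative phosphorylation 0 were called (7 at an unadjusted p under 0.05, all higher), and their differences lay between -0.063 and 0.12. Of 16 calcium handling genes 12.5% were called, against 8.03% of all genes. S100a1, a calcium sensor of the ryanodine receptor and the SERCA pump, was higher (0.19 ± 0.042, adjusted p = 0.0307) and Asph, whose locus includes junctin, was lower (-0.22 ± 0.052, adjusted p = 0.0397). Both calls were lost in 6 of the 15 settings for S100a1, without either RKIP-transgenic array or GRK-Inh-transgenic array 1 among them (adjusted p 0.0747 to 0.258) and in 7 of the 15 settings for Asph, without either RKIP-transgenic array or GRK-Inh-transgenic array 1 among them (adjusted p 0.0501 to 0.21).

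Matrix genes were lower in 5 of 28 members and higher in 1, with a median of -0.064 (range over the 15 settings -0.10 to -0.025). The genes with the larger differences make enzymes and chaperones of collagen. P4ha1, a subunit of prolyl 4-hydroxylase, had 325 and 284 in RKIP-transgenic, 833 and 768 in GRK-Inh-transgenic and 344 and 361 in control hearts (-1.26 ± 0.098, adjusted p = 1.8e-04). Serpinh1, the collagen chaperone HSP47, had 2271 and 2286 against 5018 and 5222, and 4035 and 4318 in controls (-1.15 ± 0.046, adjusted p = 4.0e-06). Among collagens, the basement membrane gene Col4a1 had 2191 and 2143 against 3504 and 3841, below 5205 and 5258 in controls (-0.75 ± 0.057, adjusted p = 1.6e-04). Col6a3 (-0.40 ± 0.081, adjusted p = 0.0218) and the collagen-binding protein gene Sparc (-0.27 ± 0.043, adjusted p = 0.0078) were lower and Col8a1 higher (0.50 ± 0.089, adjusted p = 0.0125). The second probe set of Sparc differed by -0.02. Timp4, a metalloproteinase inhibitor with high expression in heart, had 1187 and 1168 against 2694 and 2685, and 827 and 787 in controls (-1.16 ± 0.054, adjusted p = 7.9e-06). Adamts1, a protease of matrix proteoglycans, was lower as well (-0.65 ± 0.084, adjusted p = 0.0028). In the alternatives, calls were lost without a variance trend for Col4a1, Sparc and Adamts1 (adjusted p 0.0524 to 0.168), in 4 of the 15 settings for Col6a3, without RKIP-transgenic array 2 or GRK-Inh-transgenic array 1 among them (adjusted p 0.0607 to 0.135) and in 2 of the 15 settings for Col8a1, without RKIP-transgenic array 1 among them (adjusted p 0.0683 to 0.108).

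Fibroblasts are the main source of matrix in the heart. Of 14 fibroblast markers 0 were lower (0 at an unadjusted p under 0.05) and Lum, a proteoglycan of collagen fibrils, was higher (4466 and 4742 against 3222 and 3187, with 5124 and 5635 in controls; 0.52 ± 0.047, adjusted p = 4.6e-04). The share of fibroblast markers called was 7.14%, against 8.03% of all genes. Summed signals of the fibroblast list were 61195 and 63020.0 in RKIP-transgenic, 58138 and 57662 in GRK-Inh-transgenic and 72458 and 73180.0 in control hearts. Of 13 smooth muscle and pericyte markers, Acta2 (-0.31 ± 0.043, adjusted p = 0.00383) and Tagln (-0.34 ± 0.086, adjusted p = 0.0478) were lower, and Pdgfrb (0.30 ± 0.05, adjusted p = 0.0091) and the channel subunit gene Abcc9 (0.20 ± 0.037, adjusted p = 0.0137) higher. Their sums were 33312 and 33292 in RKIP-transgenic, 33237 and 33361 in GRK-Inh-transgenic and 39284 and 38193 in control hearts. Some of these calls were lost without a variance trend for Lum, Acta2 and Pdgfrb (adjusted p 0.0799 to 0.137), in 7 of the 15 settings for Tagln, without either RKIP-transgenic array or GRK-Inh-transgenic array 2 among them (adjusted p 0.0557 to 0.191) and in 3 of the 15 settings for Abcc9, without either RKIP-transgenic array among them (adjusted p 0.0582 to 0.209).

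Of 15 endothelial markers, 4 were lower and 0 higher (3 at an unadjusted p under 0.05), with a median of -0.092 (range over the 15 settings -0.13 to -0.026). They were the VEGF receptor genes Kdr (1256 and 1371 against 1908 and 1820.1; -0.49 ± 0.065, adjusted p = 0.00323) and Flt1 (-0.30 ± 0.075, adjusted p = 0.0468), the tight junction gene Cldn5 (-0.53 ± 0.11, adjusted p = 0.0275) and Pecam1 (-0.37 ± 0.092, adjusted p = 0.0471). With the arrays left out in the order given above, the numbers called were 1, 1, 1 and 3, and 0 without a variance trend. Of 14 macrophage markers, 3 were higher and 0 lower (0 at an unadjusted p under 0.05). They were the mannose receptor gene Mrc1 (1111 and 1209.7 against 788 and 887; 0.45 ± 0.081, adjusted p = 0.0137), the CSF1 receptor gene Csf1r (0.24 ± 0.046, adjusted p = 0.0154) and F13a1 (0.23 ± 0.058, adjusted p = 0.0446), and 1, 1, 2 and 1 were called without each array in that order, and 0 without a variance trend. Summed macrophage markers were 17586 and 16901 in RKIP-transgenic, 15441 and 15375 in GRK-Inh-transgenic and 17799 and 18262 in control hearts, and summed endothelial markers were 29975 and 30453 in RKIP-transgenic, 31455 and 31823 in GRK-Inh-transgenic and 37119 and 35800.0 in control hearts. The part of these cell types in the other differences was not tested.

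**Figure D3:**
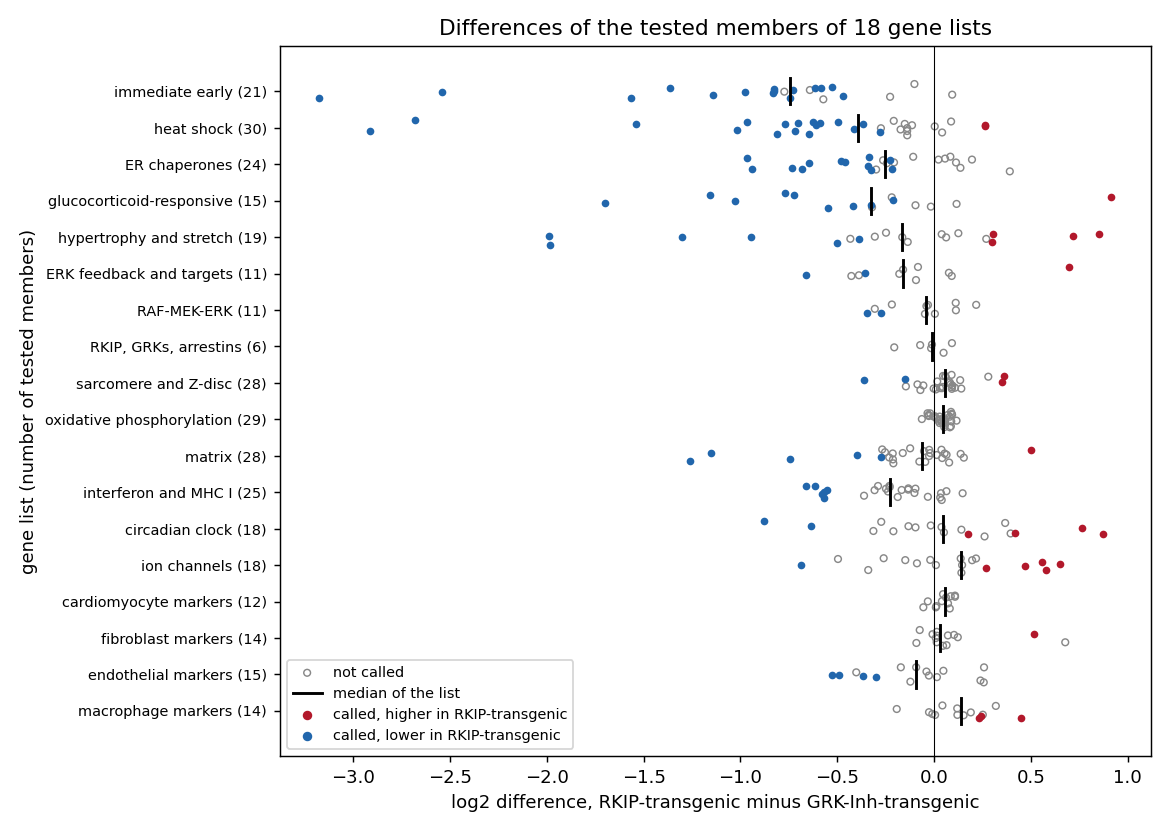
Differences between the lines (horizontal axis, log2, RKIP-transgenic minus GRK-Inh-transgenic) for the tested members of 18 gene lists (vertical axis), with one point per gene, called genes in colour and a bar at the list's median. The immediate early and heat shock lists lie to the left of 0, with medians of -0.74 and -0.39, and the cardiomyocyte and oxidative phosphorylation lists lie close to it.

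Genes known to respond to glucocorticoids were lower in 9 of 15 members and higher in 1, with a median of -0.32. That median was -0.19 over single probe sets, -0.37 without RKIP-transgenic array 2 and -0.38 without GRK-Inh-transgenic array 1. Zbtb16, a transcription factor strongly induced by the hormone, had 727 and 674 in RKIP-transgenic, 2380.3 and 2388 in GRK-Inh-transgenic and 566 and 754 in control hearts (-1.70 ± 0.064, adjusted p = 3.1e-06). The kinase gene Sgk1 had 1557 and 1692 against 3629.5 and 3727, and 1742 and 1894 in controls (-1.16 ± 0.057, adjusted p = 1.0e-05). Cdkn1a, the cell cycle inhibitor p21, had 145 and 158 against 385 and 339, and 147 and 161 in controls (-1.03 ± 0.12, adjusted p = 0.00173; -1.17 with an offset of 16 and -0.68 with an offset of 200). In all 3 the GRK-Inh-transgenic arrays were above both other groups. The metallothionein Mt2 had 916 and 959.5 against 1628 and 1637, but 1422 and 1328 in controls, between the lines (-0.77 ± 0.062, adjusted p = 2.3e-04).

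Smaller differences below 0 came from Mt1 (-0.73), Errfi1 (-0.55), Tsc22d3 (-0.42), Foxo3 (-0.32) and Pik3r1 (-0.21), all of them called. Among them, calls were lost without a variance trend for Tsc22d3 and Foxo3 (adjusted p 0.103 to 0.126), in 2 of the 15 settings for Errfi1, without RKIP-transgenic array 1 among them (adjusted p 0.0542 to 0.107) and in 5 of the 15 settings for Pik3r1, without RKIP-transgenic array 1 or either GRK-Inh-transgenic array among them (adjusted p 0.0507 to 0.22). Lcn2, an iron-siderophore carrier of inflamed tissue, was higher, with 123 and 118 against 35.8 and 45.6, and 51.6 and 45.4 in controls (0.91 ± 0.17, adjusted p = 0.0143; 1.27 with an offset of 16 and 0.41 with an offset of 200). Lcn2 passed the filter (a signal of 49.7) through its RKIP-transgenic signals, as both GRK-Inh-transgenic signals were below that level. Its call was lost in 3 of the 15 settings, without either RKIP-transgenic array among them (adjusted p 0.0585 to 0.073). Nr3c2, which encodes the mineralocorticoid receptor that also binds glucocorticoids, was among the largest differences above 0. It had 389.7 and 492 in RKIP-transgenic and 189 and 158 in GRK-Inh-transgenic hearts, and 399 and 406 in controls (1.13 ± 0.14, adjusted p = 0.00206). The RKIP-transgenic arrays lay on either side of the controls, and the GRK-Inh-transgenic arrays far below. The call was lost without a variance trend (adjusted p = 0.0619).

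Clock genes differed in both directions, with 4 of 18 higher and 2 lower. The output factor Dbp had 6884 and 7108 against 3837 and 3758, and 8327 and 8041 in controls (0.87 ± 0.041, adjusted p = 8.4e-06). Per3, a period gene, had 451 and 491 against 272 and 241, and 600.4 and 573 in controls (0.77 ± 0.11, adjusted p = 0.00404). Nfil3, which represses the sites that Dbp activates, was lower, with 208 and 208 against 413 and 436, and 283 and 250.1 in controls (-0.88 ± 0.10, adjusted p = 0.00184). Bhlhe40 (0.42 ± 0.074, adjusted p = 0.0121) and the nuclear receptor gene Nr1d2 (0.18 ± 0.041, adjusted p = 0.0349) were higher and Arntl, the BMAL1 gene, lower (-0.63 ± 0.16, adjusted p = 0.0467). The hour at which hearts were taken is not given in the sources used here. Calls were lost without a variance trend for Per3 (adjusted p = 0.0601), in 2 of the 15 settings for Bhlhe40, without RKIP-transgenic array 2 among them (adjusted p 0.0674 to 0.114), in 7 of the 15 settings for Nr1d2, without either RKIP-transgenic array or GRK-Inh-transgenic array 2 among them (adjusted p 0.0501 to 0.269) and in 7 of the 15 settings for Arntl, without each of the 4 arrays among them (adjusted p 0.0545 to 0.175).

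In fuel use, the gene with the largest difference was Pdk4, the kinase that shuts glucose carbon out of the mitochondrion by inhibiting pyruvate dehydrogenase. Its signals were 4749 and 4862 in RKIP-transgenic, 11115 and 11626 in GRK-Inh-transgenic and 8971 and 8888 in control hearts (-1.23 ± 0.039, adjusted p = 1.4e-06), so the controls lay between the lines. Of 11 tested genes that respond to PPARs, 3 were lower and 0 higher (1 at an unadjusted p under 0.05). The other called members were the lipid droplet genes Plin5 (-0.28 ± 0.065, adjusted p = 0.0371) and G0s2 (-0.25 ± 0.046, adjusted p = 0.016), with calls that were lost as given below. Of 27 genes of fatty acid uptake and oxidation, the coactivator Ppargc1a was lower (3320.0 and 3508 against 4448 and 4822; -0.44 ± 0.054, adjusted p = 0.00223) and the transporter Slc27a1 higher (0.58 ± 0.11, adjusted p = 0.0181). Of that list 7.41% were called, against 8.03% of all genes, and its median was -0.012 (range over the 15 settings -0.052 to 0.01). Among these genes, calls were lost without a variance trend for Ppargc1a (adjusted p = 0.109), in 5 of the 15 settings for Plin5, without either RKIP-transgenic array or GRK-Inh-transgenic array 2 among them (adjusted p 0.0542 to 0.215), in 4 of the 15 settings for G0s2, without either RKIP-transgenic array or GRK-Inh-transgenic array 2 among them (adjusted p 0.0541 to 0.169) and in 3 of the 15 settings for Slc27a1, without RKIP-transgenic array 1 among them (adjusted p 0.0611 to 0.106).

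Glucose genes had 3 higher and 3 lower members among 25, with a median of -0.02 (range over the 15 settings -0.06 to 0.035). Pfkfb2, the heart enzyme that makes the activator of phosphofructokinase, had 766 and 769.8 against 448 and 436, and 362 and 325 in controls (0.73 ± 0.08, adjusted p = 0.00128). Both lines were above the controls. Its other probe sets above the filter differed by 0.45, -0.13 and -0.04, so the probe sets did not move together. The glucose transporter Slc2a1 (0.33 ± 0.074, adjusted p = 0.0309) and the hexokinase gene Hk1 (0.29 ± 0.056, adjusted p = 0.0193) were higher, and the glycolytic genes Pgam1 (-0.48 ± 0.078, adjusted p = 0.00867), Pfkp (-0.33 ± 0.067, adjusted p = 0.0222) and Pkm (-0.29 ± 0.055, adjusted p = 0.0164) were lower. In the alternatives, calls were lost without a variance trend for Pgam1 (adjusted p = 0.102), in 4 of the 15 settings for Slc2a1, without RKIP-transgenic array 1 or GRK-Inh-transgenic array 1 among them (adjusted p 0.0728 to 0.151), in 4 of the 15 settings for Hk1, without either RKIP-transgenic array or GRK-Inh-transgenic array 1 among them (adjusted p 0.0543 to 0.144), in 5 of the 15 settings for Pfkp, without each of the 4 arrays among them (adjusted p 0.0505 to 0.126) and in 3 of the 15 settings for Pkm, without RKIP-transgenic array 1 or GRK-Inh-transgenic array 2 among them (adjusted p 0.0654 to 0.151).

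Of 16 enzymes of ketone, GABA and branched-chain amino acid metabolism, 2 were higher and 0 lower (1 at an unadjusted p under 0.05). The share called was 12.5%, against 8.03% of all genes. Abat, which degrades GABA, had 937 and 826 in RKIP-transgenic, 339.8 and 241 in GRK-Inh-transgenic and 238 and 211 in control hearts (1.47 ± 0.14, adjusted p = 5.4e-04). The RKIP-transgenic arrays stood apart from the other 4. Bdh1, which oxidises the ketone body beta-hydroxybutyrate, had 1719 and 1626 against 1048 and 1022, and 638 and 581 in controls (0.67 ± 0.063, adjusted p = 5.2e-04). Bdh1 was above the controls in both lines, and a second probe set differed by 0.24. Both calls were lost without a variance trend (adjusted p 0.0533 to 0.056).

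Genes of fatty acid and triglyceride synthesis were lower in 5 of 20 members and higher in 3. Scd1, a desaturase of new fatty acids, had 437 and 472 against 1551 and 1525, with 803 and 665 in controls between the lines (-1.66 ± 0.074, adjusted p = 6.6e-06). Its second probe set differed by -0.35. Mgll, the monoglyceride lipase, had 1672 and 1710.1 against 2727 and 2778, and 2338 and 2263 in controls (-0.69 ± 0.051, adjusted p = 1.4e-04). Agpat2, an acyltransferase of triglyceride synthesis in fat, went the other way, with 1009 and 989.6 against 558 and 579, and 1012 and 969.8 in controls (0.76 ± 0.073, adjusted p = 5.8e-04). Smaller differences were those of Gpam (-0.22 ± 0.037, adjusted p = 0.0105), Lpin1 (-0.20 ± 0.044, adjusted p = 0.0292) and the lipase gene Pnpla2 (0.32 ± 0.053, adjusted p = 0.00924). Scd2 was higher (0.51 ± 0.086, adjusted p = 0.0103) and Acly lower (-0.32 ± 0.072, adjusted p = 0.0328). Calls were lost in 2 of the 15 settings for Gpam, without RKIP-transgenic array 1 among them (adjusted p 0.0508 to 0.195), in 5 of the 15 settings for Lpin1, without either RKIP-transgenic array or GRK-Inh-transgenic array 2 among them (adjusted p 0.0703 to 0.237), in 2 of the 15 settings for Pnpla2 and Scd2, without RKIP-transgenic array 2 among them (adjusted p 0.0513 to 0.13) and in 5 of the 15 settings for Acly, without either RKIP-transgenic array or GRK-Inh-transgenic array 1 among them (adjusted p 0.0739 to 0.153). Among 15 genes of cholesterol synthesis, 6.67% were called, against 8.03% of all genes. The list's median was 0.19 (0.12 with an offset of 200, 0.015 over single probe sets and 0.076 without RKIP-transgenic array 1). Fdft1 was the gene called, and it was higher (0.31 ± 0.055, adjusted p = 0.0119). That call was lost in 2 of the 15 settings, without RKIP-transgenic array 2 among them (adjusted p 0.0651 to 0.134).

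White adipocytes lie around the heart and its vessels. Of 5 tested markers of these cells 2 were lower and 0 higher (0 at an unadjusted p under 0.05). Car3, a carbonic anhydrase abundant in fat, had 1019 and 1073 in RKIP-transgenic, 3670.4 and 3209 in GRK-Inh-transgenic and 3412 and 3212 in control hearts (-1.67 ± 0.072, adjusted p = 5.5e-06). The adipokine gene Adipoq had 88.8 and 80.8 against 434 and 259.8, and 288 and 307 in controls (-1.52 ± 0.20, adjusted p = 0.00316; -1.81 with an offset of 16 and -0.92 with an offset of 200). For both, the GRK-Inh-transgenic arrays were near the controls and the RKIP-transgenic arrays below them. The summed signals of the list were 1432 and 1542 in RKIP-transgenic, 4626 and 4005 in GRK-Inh-transgenic and 4186 and 4033 in control hearts. Car3 made up most of each sum. Whether these cells carry part of the differences in lipid genes was not tested. The call of Adipoq was lost without a variance trend (adjusted p = 0.0863).

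Iron genes were higher in 3 of 12 members and lower in 0 (0 at an unadjusted p under 0.05), with a median of 0.17. Tfrc, the transferrin receptor, had 1795 and 1712 against 1180.0 and 1210.2, both far below 7504 and 7303 in controls (0.53 ± 0.06, adjusted p = 0.00141), and 2 further probe sets differed by -0.12 and 0.13. The ferroxidase gene Cp had 3012 and 3351 against 2116 and 2153, and 2184 and 2408 in controls (0.56 ± 0.06, adjusted p = 0.00114). Hjv, the hemojuvelin co-receptor, was higher by 0.17 ± 0.044, adjusted p = 0.0496. Of 15 genes of the NRF2 and glutathione defence, 3 were higher, Nqo1 (0.51 ± 0.099, adjusted p = 0.0177), Gstm1 (0.48 ± 0.089, adjusted p = 0.0145) and the catalase gene Cat (0.15 ± 0.038, adjusted p = 0.048). In this list 0 were called lower, but 5 were lower at an unadjusted p under 0.05, and differences reached down to -0.42. The median of the list was -0.025 (0.097 with a filter at the 75th percentile), so the list as a whole was not higher. The numbers called without each array in the order above were 0, 1, 2 and 2. Some of these calls were lost without a variance trend for Tfrc and Cp (adjusted p 0.0712 to 0.0863), in 10 of the 15 settings for Hjv, without each of the 4 arrays among them (adjusted p 0.0502 to 0.275), in 4 of the 15 settings for Nqo1, without either RKIP-transgenic array among them (adjusted p 0.0568 to 0.127), in 3 of the 15 settings for Gstm1, without RKIP-transgenic array 1 among them (adjusted p 0.0594 to 0.145) and in 9 of the 15 settings for Cat, without each of the 4 arrays among them (adjusted p 0.0574 to 0.32). Of 8 retinoid genes Dhrs3, a retinal reductase, was called (12.5%, against 8.03% of all genes), and it was lower (-0.45 ± 0.08, adjusted p = 0.0123). Its call was lost in 2 of the 15 settings, without RKIP-transgenic array 1 among them (adjusted p 0.0551 to 0.11).

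Ion channel genes were higher in 5 of 18 members and lower in 1, with a median of 0.14 (0.092 with an offset of 200 and 0.047 without RKIP-transgenic array 1). The called potassium channel genes included Kcnq1, of the slow delayed rectifier (488 and 479 against 311 and 270.1, with 418 and 447 in controls; 0.65 ± 0.10, adjusted p = 0.00793). They also included Kcnd3, of the transient outward current (0.58 ± 0.10, adjusted p = 0.0123), and Kcnh2, of the rapid delayed rectifier (0.47 ± 0.087, adjusted p = 0.0145). The pacemaker channel Hcn2 (0.56 ± 0.13, adjusted p = 0.0396) and the gap junction gene Gja1 (0.27 ± 0.045, adjusted p = 0.00924) were higher as well. Kcna5, of the ultrarapid current, was lower, with 433 and 487 against 777 and 760.3 and 475 and 515 in controls (-0.68 ± 0.087, adjusted p = 0.00264). Without each array in the order above 3, 2, 4 and 4 channels were higher, and 0 without a variance trend. Calls were lost without a variance trend for Kcnq1 and Kcna5 (adjusted p 0.0636 to 0.0734), in 2 of the 15 settings for Kcnd3, without RKIP-transgenic array 2 among them (adjusted p 0.0656 to 0.0948), in 2 of the 15 settings for Kcnh2, without RKIP-transgenic array 1 among them (adjusted p 0.0811 to 0.106), in 7 of the 15 settings for Hcn2, without each of the 4 arrays among them (adjusted p 0.0507 to 0.143) and in 3 of the 15 settings for Gja1, without RKIP-transgenic array 2 among them (adjusted p 0.0518 to 0.189).

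Interferon-responsive and MHC class I genes were lower in 6 of 25 members and higher in 0 (0 at an unadjusted p under 0.05), with a median of -0.23 (-0.15 with an offset of 200). B2m, the light chain of MHC class I, had 6693 and 6580.2 in RKIP-transgenic, 10355 and 10688 in GRK-Inh-transgenic and 8535 and 8558 in control hearts (-0.66 ± 0.036, adjusted p = 1.8e-05). The heavy chain genes H2-K1 (2484 and 2520.0 against 3859.8 and 3861; -0.62 ± 0.045, adjusted p = 1.3e-04) and H2-D1 (2072 and 2375 against 3210.5 and 3424; -0.57 ± 0.07, adjusted p = 0.00214) were lower, and related MHC genes can share probes. The interferon-induced genes Igtp (-0.58 ± 0.077, adjusted p = 0.00323), Rsad2 (-0.57 ± 0.064, adjusted p = 0.00141) and Bst2 (-0.55 ± 0.091, adjusted p = 0.00919) were lower too. Rsad2 was below the controls in both lines. Of 5 MHC class II genes, H2-Aa (-0.55 ± 0.055, adjusted p = 7.5e-04) and H2-Eb1 (-0.64 ± 0.11, adjusted p = 0.0121) were lower. The median of these 5 genes was -0.19. A further member went the other way, with a difference of 0.61 that was not called (unadjusted p under 0.05). Among these genes, calls were lost without a variance trend for H2-K1, H2-D1, Igtp, Rsad2, Bst2 and H2-Aa (adjusted p 0.0533 to 0.101) and in 3 of the 15 settings for H2-Eb1, without RKIP-transgenic array 2 among them (adjusted p 0.0542 to 0.126).

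Of 12 matched lymphocyte and plasma cell markers, 4 passed the filter and Ighm, Jchain and Ms4a1 were lower. Jchain and Ms4a1 were dim on both RKIP-transgenic arrays and passed the filter through their GRK-Inh-transgenic signals. Without the filter 2 of 12 markers were called lower, and the list's median was -0.20. Ighm, the IgM heavy chain, had 109 and 103 in RKIP-transgenic, 848 and 837 in GRK-Inh-transgenic and 188 and 156 in control hearts (-2.52 ± 0.10, adjusted p = 4.0e-06). Its further probe sets above the filter differed by 0.25, -1.27 and 0.25, so they disagreed. Jchain, which joins IgM and IgA, had 39.3 and 32.6 against 149.7 and 246, and 37.5 and 60.7 in controls (-1.50 ± 0.21, adjusted p = 0.00383; -2.01 with an offset of 16 and -0.74 with an offset of 200). The B cell marker Ms4a1 was lower at signals of 35.1 and 37.4 against 96.4 and 93.2 (-0.75 ± 0.17, adjusted p = 0.0345). The summed signals of the 12 matched markers were 731 and 651 in RKIP-transgenic, 1705 and 1780.0 in GRK-Inh-transgenic and 773 and 843 in control hearts. The GRK-Inh-transgenic arrays had the highest sums, and the part of these cells in the MHC differences was not tested. Most of the gap between the sums of the lines came from 1 probe set of Ighm, whose further probe sets disagreed. Of the markers summed, 8 were below the filter. In the alternatives, calls were lost without a variance trend for Jchain (adjusted p = 0.0736) and in 5 of the 15 settings for Ms4a1, without each of the 4 arrays among them (adjusted p 0.0911 to 0.125).

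The remaining genes of largest difference belonged to no list. Wdfy1 had 546 and 563 in RKIP-transgenic, 137 and 117 in GRK-Inh-transgenic and 538 and 484 in control hearts (1.78 ± 0.11, adjusted p = 5.1e-05). The GRK-Inh-transgenic arrays stood alone below the other 4, and 3 further probe sets differed by 1.89, 2.04 and 1.14. Dnm2, a dynamin of membrane fission, had 611 and 641 against 248 and 288, and 268 and 234 in controls (1.09 ± 0.10, adjusted p = 5.2e-04), so here the RKIP-transgenic arrays stood alone. Its 5 further probe sets differed by -0.09 to 0.38, less than the first. Ptgds, the prostaglandin D synthase, had 11952 and 12558 against 6331 and 6124, and 7646 and 7955 in controls (0.97 ± 0.04, adjusted p = 4.2e-06). The microsomal glutathione transferase Mgst1 had 7534 and 8282 against 4004 and 4113, and 5062 and 4302 in controls (0.95 ± 0.051, adjusted p = 1.6e-05). Both of these were above the controls in RKIP-transgenic and below them in GRK-Inh-transgenic hearts.

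Gadd45a, a stress sensor of growth arrest, had 775 and 846 against 358 and 376, and 921 and 815 in controls (1.04 ± 0.088, adjusted p = 2.9e-04). Bcl6, a transcriptional repressor of lymphocytes and other cells, had 283 and 293 against 889 and 1001, and 416 and 353 in controls (-1.56 ± 0.092, adjusted p = 2.8e-05). Ccn5, a matricellular protein of the CTGF family, had 232 and 198 against 77.8 and 56.6, and 245 and 238 in controls (1.18 ± 0.16, adjusted p = 0.00359; 1.48 with an offset of 16 and 0.63 with an offset of 200). The GRK-Inh-transgenic arrays were the lowest for Ccn5 and the highest for Ccn2. Mxra7 (0.92 ± 0.10, adjusted p = 0.00143), Zc3h6 (1.06 ± 0.14, adjusted p = 0.00348) and E230013L22Rik (0.97 ± 0.13, adjusted p = 0.00382) were higher. So were the peptide transporter Slc15a2 (1.07 ± 0.18, adjusted p = 0.0102), Cdr2l (1.04 ± 0.22, adjusted p = 0.0258) and the histone gene H2bc22 (1.01 ± 0.24, adjusted p = 0.0394). Slc15a2 and Cdr2l were dim in GRK-Inh-transgenic hearts and passed the filter through their RKIP-transgenic signals. With an offset of 200 the differences of Slc15a2, Cdr2l, H2bc22, Zc3h6 and E230013L22Rik were 0.46, 0.46, 0.53, 0.66 and 0.58, and that of H2bc22 was 0.62 without GRK-Inh-transgenic array 1. The further probe sets of Mxra7 differed by -0.47 and 0.53, and that of Cdr2l by -0.51. Some of these calls were lost without a variance trend for Ccn5 and Zc3h6 (adjusted p 0.0524 to 0.0601), in 1 of the 15 settings for Slc15a2, without RKIP-transgenic array 2 among them (adjusted p = 0.0605) and in 5 of the 15 settings for Cdr2l and H2bc22, without either RKIP-transgenic array or GRK-Inh-transgenic array 1 among them (adjusted p 0.0659 to 0.17).

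**Figure D4:**
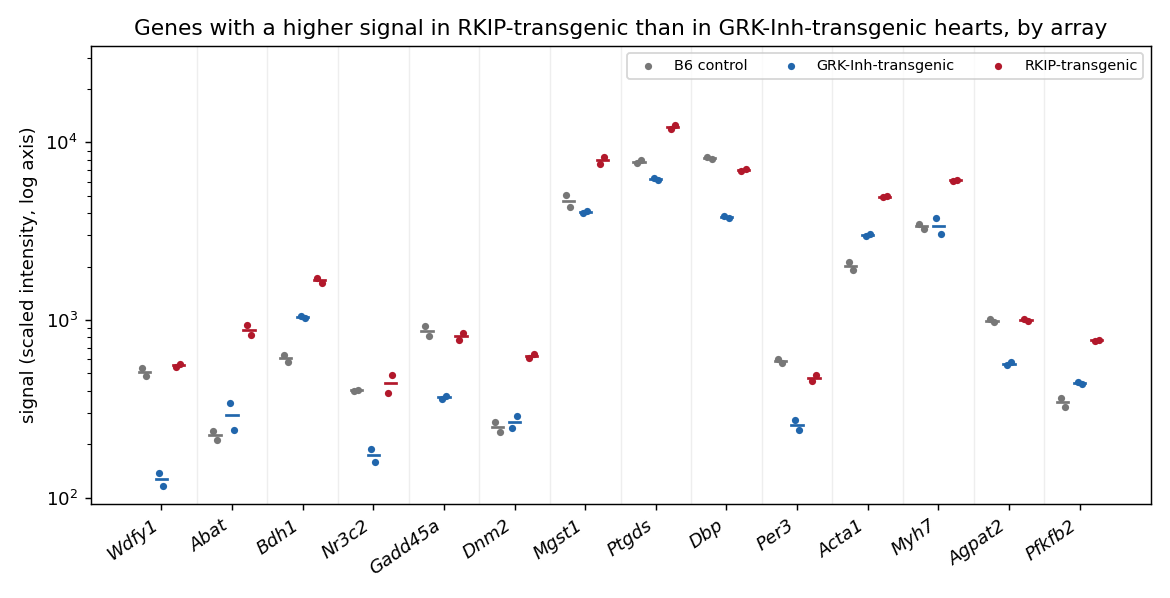
Signals of genes higher in RKIP-transgenic hearts (vertical axis, log scale, deposited signal), with one point per array and the groups B6 control, GRK-Inh-transgenic and RKIP-transgenic side by side. Horizontal bars are group means (n = 2). For Wdfy1 the control arrays (538 and 484) lie with the RKIP-transgenic arrays (546 and 563), and for Abat (238 and 211) with the GRK-Inh-transgenic ones (339.8 and 241).

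Of the proteasome subunits 8% were called and of the cell cycle genes 20%, beside 8.03% of all genes. Psmc1 (0.25 ± 0.048, adjusted p = 0.0162) and Psma7 (0.21 ± 0.05, adjusted p = 0.038) were higher among 25 proteasome subunits, and 0 were lower (3 at an unadjusted p under 0.05). Among 15 cell cycle genes, Cdkn1c, the inhibitor p57, was higher (0.45 ± 0.098, adjusted p = 0.0275), and the proliferation marker Mki67 was lower (-0.72 ± 0.18, adjusted p = 0.0463) beside Cdkn1a. Mki67 was dim in RKIP-transgenic hearts and passed the filter through its GRK-Inh-transgenic signals. These calls were lost in 3 of the 15 settings for Psmc1, without either RKIP-transgenic array among them (adjusted p 0.0582 to 0.165), in 5 of the 15 settings for Psma7, without RKIP-transgenic array 2 or GRK-Inh-transgenic array 2 among them (adjusted p 0.0988 to 0.244), in 5 of the 15 settings for Cdkn1c, without either RKIP-transgenic array or GRK-Inh-transgenic array 2 among them (adjusted p 0.0612 to 0.123) and in 7 of the 15 settings for Mki67, without each of the 4 arrays among them (adjusted p 0.0508 to 0.215). Of 2 tested skeletal muscle markers and 4 Schwann cell and neuron markers 0 were called (2 skeletal muscle and 0 Schwann cell and neuron markers at an unadjusted p under 0.05). No erythrocyte marker passed the filter, and their summed signals were 74.7 and 98.2 in RKIP-transgenic, 26.4 and 46.1 in GRK-Inh-transgenic and 41.7 and 45.4 in control hearts.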

How the data were processed

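Total RNA of mouse hearts was hybridised as biotin-labelled cRNA to 6 Affymetrix arrays, 2 per group, per the labels' protocols. The authors deposited a linear intensity for each probe set, computed with GCOS (version not given) per the submitters' processing notes. The deposited values shared a 2% trimmed mean of 300.002 on every array. Groups were read from the sample labels. Of 45101 probe sets, 64 controls were set aside, and 932 with several gene symbols and 9160 with none were kept out of the gene tests. Signals were transformed as log2(signal + 50), and the probe set of highest mean stood for each of 18193 genes. Genes with a mean log2 value of at least 6.64, the median over probe sets that are not controls, entered the test, 11255 in all; this level corresponds to a signal of 49.7. Genes without such a probe set were not analysed here.

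The 2 lines were compared on their 4 arrays in R 4.3.3 with limma 3.58.1 (lmFit, eBayes with a trend of variance on mean level), two-sided, with 2 residual and 6.46 prior degrees of freedom, after a check on simulated data. The number of arrays limits the precision, and the median SE of a log2 difference was 0.11. The SD of the log2 difference was 0.204 to 0.208 between arrays of a line and 0.279 to 0.287 between lines. The genes named were the 15 of largest rise and of largest fall among calls without overlap, up to 5 called members of each of 42 lists (up to 2 of highest signal where none was called), and fixed genes. Other called list members and the uncalled kinases Araf, Braf and Map2k1 were chosen for naming after their values were seen. Members and lists were chosen with earlier results of these data known. List entries numbered 769, of which 705 were matched to a gene with a probe set. Promoters are from RefSeq, build GRCm38.p6, and plots were made in Python 3.11.15 (matplotlib 3.10.9).

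The alternatives were offsets of 16 and 200, one median for all arrays, quantile normalization, a filter at the 75th percentile or none, robust moderation, a fit without a variance trend, all 6 arrays in one model, the replicate number as a block, all probe sets tested one by one, other thresholds, and each array left out in turn.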

Additional observations from a re-analysis of the deposited data

Results flagged for a closer look

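In Egr1, Ighm, Ccn2, Scd1 and Dusp1 both arrays of one line lay below, and both arrays of the other line above, both control arrays. The mean of each line was at least 0.5 from the control mean on the log2 scale, so that the lines departed from the controls in opposite directions. The share of all genes tested with this order is not given here. As stated above, the further probe sets of Ighm disagreed, and the second probe set of Scd1 showed a smaller difference. The difference between the lines, which is what was tested, was -2.54 for Egr1, -2.52 for Ighm, -1.98 for Ccn2, -1.66 for Scd1 and -1.36 for Dusp1, lower in RKIP-transgenic hearts in every case. Egr1 had 434 and 479.8 in RKIP-transgenic, 1011 and 1013 in control and 2751 and 3050.2 in GRK-Inh-transgenic hearts. For Ighm the values were 109 and 103, 188 and 156 and 848 and 837, in the same order of groups. Ccn2 had 1901 and 1846, 3404 and 3396 and 7427 and 7676. Scd1 had 437 and 472, 803 and 665 and 1551 and 1525, and Dusp1 had 1622 and 1423, 2238 and 2441 and 4085 and 3883. The steps from the controls to each line share the control arrays and were not tested here.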

How the results depend on the processing

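Against 904 genes called, 428 were called without a filter on dim genes, where 18193 genes were tested, 86 without a variance trend, 304 at an adjusted p under 0.01 and 43 at 2-fold. With 1 array left out the count was 446 to 700. The replicate number as a block gave 1308 calls, 904 of them shared. Same-numbered arrays of the lines did not deviate together over all genes (r = 0.027 over 11255 genes). The labels state no pairing, and this value cannot exclude one that touches part of the genes. Of 161 named genes called, 42 were tested and passed in every setting and 93 in every setting other than that without a variance trend, 16 were not tested in some setting, and 0 reversed. The genes that reversed were uncalled. With 1 array left out, differences ranged from -0.027 to 0.0066 for Pebp1, -0.029 to 0.13 for Grk5, -0.026 to 0.045 for Myh6, -0.39 to 0.11 for Dbh and -0.13 to 0.051 for Map2k1. Myh6 was at -0.031 after quantile normalization and -0.030 with the arrays shifted to one median, and Nppa at -0.0051 after quantile normalization. Where no construction of the setting (fewer arrays, more genes, a stricter threshold) shows it, the cause was not tested. Of 614 list medians recomputed, 78 moved. With 2 arrays per line, small differences were not resolved, and low signals such as those of Fos and Nr4a3 give sizes that depend on the offset.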

Other observations

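Probe sets with several gene symbols or none were tested apart from the genes. Of 2750 such probe sets above the filter, 134 were called (4.87%), 63 higher and 71 lower in RKIP-transgenic hearts. No gene is named from them.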
